A study of Mus musculus with 58 samples.

Results

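The Krüppel-like factor genes Klf9, Klf11, Klf13 and Klf15 were followed through the authors' deposited maps of BMAL1 and CLOCK binding in a mouse cell line and in mouse liver. The members were the entries of both BMAL1 peak lists whose gene column named any of these 4 genes, plus every CLOCK peak whose centre lay within 5 kb of such an entry. They came to 10 of the 3172 regions in the 4 lists, namely 3 of 463 NIH3T3 BMAL1 peaks, 6 of 1254 liver BMAL1 peaks, 0 of 1016 NIH3T3 CLOCK peaks and 1 of 439 liver CLOCK peaks. The 9 BMAL1 entries described 6 distinct intervals, because 3 intervals stood in both lists. That these genes had a BMAL1 peak was the rule that chose them, so it is not a result, and members were described by their positions and counts with no test.

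Krüppel-like factors are transcription factors that bind GC-rich and CACCC sequences through C-terminal zinc fingers. KLF9 is induced by glucocorticoids and thyroid hormone and is known as a factor that carries clock and hormone timing to growth control. KLF11, also called TIEG2, and KLF13, also called RFLAT-1, recruit the Sin3 corepressor and act mainly as repressors or context-dependent regulators. KLF15 controls amino acid breakdown and gluconeogenesis in liver. BMAL1 and CLOCK pair on E-boxes, of which CACGTG is the canonical form, to drive the activating arm of the circadian clock.

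Binding was measured by chromatin immunoprecipitation and sequencing (ChIP-seq). NIH3T3 cells, an established mouse fibroblast line, were synchronised with 100 nM dexamethasone for 30 minutes, and all NIH3T3 ChIP-seq groups shared that treatment. The samples whose labels cite the NIH3T3 BMAL1 list were 7 libraries, taken 12, 18, 20, 22, 26, 30 and 38 h after dexamethasone, although the list's name gave 20 h alone. The NIH3T3 CLOCK list belonged to 6 libraries, taken at 18, 22, 26, 30, 34 and 38 h. Liver CLOCK was 1 sample, called pooled, from C57/BL6 mice aged 12 to 14 weeks under 12 h light and 12 h dark with free food, with no time of day in its label. For BMAL1 in liver the authors had processed earlier libraries from zeitgeber time 6 again, and the strain and age of those mice are not stated in the labels or design text read here. Several immunoprecipitations were pooled for each library, per the labels' protocols. The lists gave intervals in mm9 with neither peak heights nor scores and nothing per library, so replicate spread and sequencing depth are unknown. No expression value was used, so the labels of cells and tissue were not checked against marker genes.

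Promoter sequences of 3 of the genes are shown because the BMAL1 peaks of Klf9 and Klf11 lay just before their start sites, while the peak of Klf15 lay downstream of a promoter that itself carries E-box letters. The stretches run from 250 bases before the RefSeq start site to 3 bases after it, all on the plus strand of GRCm38.p6. They cover chr19:23140976-23141228 for Klf9, chr12:24651121-24651373 for Klf11 and chr6:90462326-90462578 for Klf15. By the authors' distances the Klf9 peak at -326 bp and the Klf15 peak lie outside these stretches. Capitals mark CACGTG, which reads the same on both strands.
Klf9: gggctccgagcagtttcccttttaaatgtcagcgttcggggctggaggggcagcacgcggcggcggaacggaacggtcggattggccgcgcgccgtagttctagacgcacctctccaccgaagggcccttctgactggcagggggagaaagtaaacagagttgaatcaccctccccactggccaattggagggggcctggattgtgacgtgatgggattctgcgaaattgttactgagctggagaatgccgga
Klf11: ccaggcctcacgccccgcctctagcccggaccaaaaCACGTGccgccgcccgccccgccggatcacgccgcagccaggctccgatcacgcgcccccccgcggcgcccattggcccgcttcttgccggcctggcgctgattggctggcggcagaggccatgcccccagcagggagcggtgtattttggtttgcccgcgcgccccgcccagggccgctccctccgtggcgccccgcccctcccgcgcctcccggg
Klf15: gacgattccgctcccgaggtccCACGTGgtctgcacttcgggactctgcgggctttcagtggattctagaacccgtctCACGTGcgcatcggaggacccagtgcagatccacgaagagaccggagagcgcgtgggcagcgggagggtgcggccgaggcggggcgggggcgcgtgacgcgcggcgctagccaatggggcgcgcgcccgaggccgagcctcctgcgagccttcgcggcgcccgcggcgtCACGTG

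All 4 genes had an entry in the RefSeq promoter table. Over the table's full window, 250 bases before to 50 after the start, CACGTG was found once in Klf11, 3 times in Klf15 and not at all in Klf9 and Klf13. Allowing CACGTT or its reverse complement AACGTG as well added no match in any of the 4. Of all 32851 RefSeq promoters of this length, 2349 (7.15%, 95% Clopper-Pearson interval 6.87 to 7.43) held CACGTG and 3752 (11.4%) held any of these letters. As many as 3 CACGTG matches, as in Klf15, stood in 29 promoters (0.0883%). Counted by gene, with CACGTG in any promoter of the gene, 2187 of all 27025 genes (8.09%) held it. Among genes with a BMAL1 peak centre inside that window by the authors' distance, 88 of 131 NIH3T3 genes (67.2%, 58.4 to 75.1) and 108 of 199 liver genes (54.3%, 47.1 to 61.3) held CACGTG. These are matches of letters, and neither a match nor its absence shows whether BMAL1 binds there.

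Klf11 had 1 BMAL1 peak, and it was the same interval in both lists, chr12:25336003-25336070, 68 bp wide. Its centre lay 200 bp before the start site (authors' distance -200 bp). Counted from the authors' start site the interval spans -234 to -166 bp, and counted from the RefSeq start site the CACGTG of the promoter printed above spans -214 to -209 bp. If both start sites are the same base, the centre of the letters lies 11 bp from the peak centre. Across the NIH3T3 list, 80 peaks could be compared in this way, with a median offset of 20 bp, and 18 of them were closer than the 11 bp of Klf11. In the liver list the median was 24 bp over 94 peaks. No other BMAL1 peak and no CLOCK peak lay within 200 kb of the Klf11 start site in any list. The nearest CLOCK centres were 2236 kb away in NIH3T3 cells and 1450 kb away in liver. Over all BMAL1 peaks the median of this distance was 374 kb in the NIH3T3 list and 2151 kb in the liver list. In NIH3T3 cells 88.3% of peaks lay closer to CLOCK than that of Klf11, and in liver 37.9% did.

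Klf9 had a pair of BMAL1 peaks, each 50 bp wide, at chr19:23215366-23215415 and chr19:23215494-23215543. They lay 326 and 198 bp before the start site (authors' distances -326 and -198 bp) with 128 bp between their centres, and both stood in both lists. A second peak within 200 bp was found for 115 of 463 NIH3T3 peaks (24.8%) and 137 of 1254 liver peaks (10.9%), so many other sites of both lists had such a close neighbour. At gene level, 82 of 345 NIH3T3 genes had 2 or more peaks (23.8%), and in liver the share was 17.1% of 985 genes.

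No CLOCK peak met the 5 kb limit at Klf9, but a site just beyond it did carry CLOCK in both contexts. The NIH3T3 CLOCK peak at chr19:23210145-23210194 lay 5221 and 5349 bp from the Klf9 BMAL1 peaks, and the liver CLOCK peak at chr19:23210197-23210446 lay 5069 and 5197 bp from them. The centres of these CLOCK peaks were 152 bp apart. BMAL1 peaks stood there too, which the authors assigned to 2410080I02Rik, a long non-coding RNA gene next to Klf9 in the RefSeq table. The peak at chr19:23210227-23210276 was in both lists, 82 bp from the NIH3T3 CLOCK centre and 70 bp from the liver one. A further pair of intervals, at chr19:23210680-23210729 and chr19:23211086-23211135, was in the NIH3T3 list alone. The centre of the former still lay within 500 bp of the liver BMAL1 peak at chr19:23210227-23210276. Counted from the Klf9 start site, these 3 peaks lay 5465, 5012 and 4606 bp upstream. By position, whatever gene was named, 5 NIH3T3 and 3 liver BMAL1 peaks thus lay within 10 kb of the Klf9 start site, with 1 CLOCK peak of each context. In each context CLOCK lay within 500 bp of the non-coding gene's peak found in both lists, and not of the pair before Klf9. The NIH3T3 CLOCK centre lay 535 and 941 bp from the further pair of the non-coding gene.

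**Figure D1:**
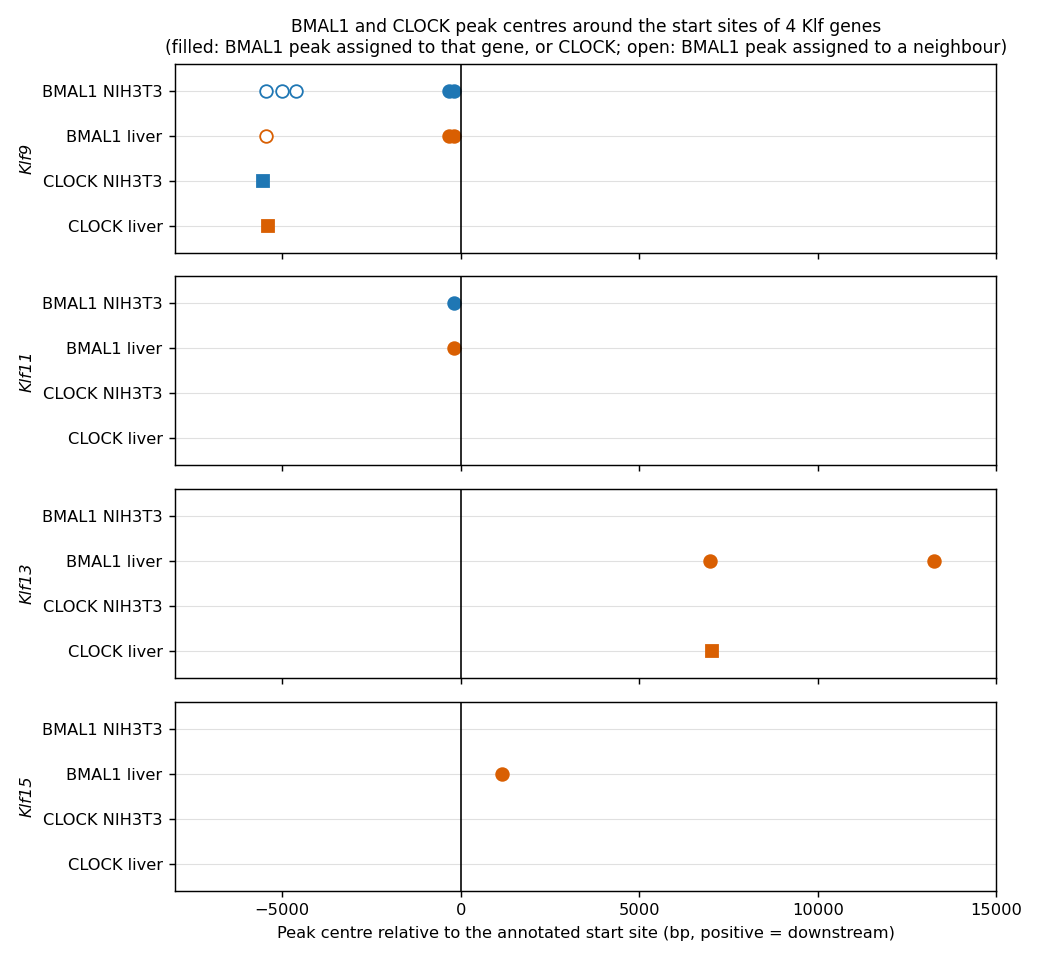
Peak centres of the 4 lists, in rows, around the start site of each Klf gene, in panels, in bp with positive values downstream; circles are BMAL1, squares are CLOCK, and open circles are BMAL1 peaks that the authors assigned to a neighbouring gene. Klf9 and Klf11 have BMAL1 peaks before the start in both contexts, Klf13 and Klf15 have liver peaks after it, and CLOCK stands about 5 kb upstream of Klf9 in both contexts and at the Klf13 peak 6975 bp downstream in liver.

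Klf13 had 2 BMAL1 peaks, both in the liver list alone and both 50 bp wide. They lay 6975 and 13240 bp downstream of the start site, at chr7:71062757-71062806 and chr7:71056492-71056541, with 6265 bp between their centres. The gene runs on the minus strand, so the peak with the lower coordinates is the more distant one. The only CLOCK member stood at the nearer of the pair: the liver CLOCK peak at chr7:71062591-71062840 covered it, with 66 bp between the centres. The farther peak had that same CLOCK peak as its nearest, 6199 bp away. The NIH3T3 CLOCK list had its nearest peak 151 kb from the farther and 157 kb from the nearer Klf13 peak, and no NIH3T3 BMAL1 peak lay within 200 kb of the start site. Among the 792 genes annotated to a BMAL1 peak in liver alone, 15 (1.89%) had a liver CLOCK peak within 500 bp, Klf13 among them, and in 4 of the others that peak was closer to its start site than the 6975 bp of Klf13.

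Klf15 had 1 BMAL1 peak, in liver alone, at chr6:90413705-90413754, 1159 bp downstream of the start site. Its RefSeq promoter held CACGTG at -228 to -223, -172 to -167 and -3 to 3 bp, so the peak lay over 1 kb from all of these letters if the start sites are the same. The nearest CLOCK peak was 889 kb away in liver and 1135 kb away in NIH3T3 cells. Most liver peaks were farther from a liver CLOCK centre: the median was 2151 kb, and 27.0% of liver peaks lay closer than that of Klf15. Within 200 kb the single other BMAL1 peak was a liver peak at chr6:90494545-90494594, 80.8 kb from that of Klf15, assigned at -6214 bp to Aldh1l1, which encodes an enzyme of folate metabolism.

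**Figure D2:**
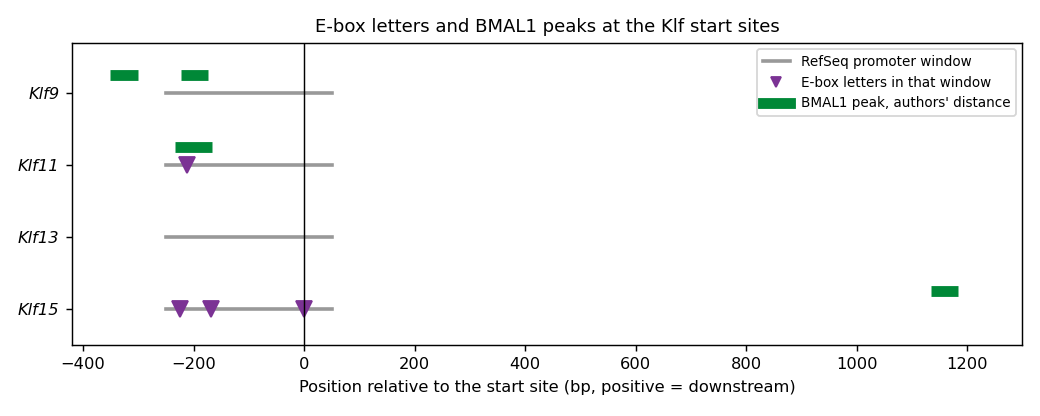
E-box letters in the RefSeq promoter windows (purple triangles on grey lines) and BMAL1 peaks at the authors' distances (green bars) for the 4 genes, in bp from the start site. The Klf11 peak and letters coincide near -200 bp, Klf15 has 3 matches and a peak at 1159 bp, and the windows of Klf9 and Klf13 hold no match; both start sites are drawn at 0 although the annotations can differ, and the Klf13 peaks lie outside the axis.

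The genes fell into a pair with promoter peaks in both contexts and a pair with downstream peaks in liver alone. All 3 NIH3T3 member peaks were shared, meaning that a peak centre of the other BMAL1 list lay within 500 bp, against 274 of 463 peaks (59.2%, 54.5 to 63.7) in that list. In liver 3 of 6 were shared, against 273 of 1254 (21.8%, 19.5 to 24.2). The shared entries were at positions 70, 127 and 128 of each list, inside the first 263 entries, which were identical in both lists. No label or header states how the lists were assembled, so the sharing at Klf9 and Klf11 may not come from independent calls. Intervals identical in both lists alone made up 56.8% of the NIH3T3 list and 21.0% of the liver list. The same limit thus applies to the list shares above and to the shared peaks of other genes below. The Klf15 and Klf13 entries were at positions 1057, 1123 and 1124 of the liver list.

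All 3 NIH3T3 member peaks lay within 1 kb of the start site, against 332 of 463 in that list (71.7%, 67.4 to 75.8). In liver 3 of 6 did, against 560 of 1254 (44.7%, 41.9 to 47.5). None of the 3 liver-only member peaks did, against 33.6% of 981 liver-only peaks, and 2 of them lay between 1 and 10 kb, against 26.7%. With so few members, none of these counts was read as a departure from its list. The median distance from the start site was 219 bp in the NIH3T3 list, near the 198 to 326 bp of Klf9 and Klf11. In the liver list it was 2182 bp, which the distance of Klf15 fell under and both distances of Klf13 exceeded, the farther with 72.0% of liver peaks closer to a start site.

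CLOCK within 500 bp was found at 0 of 3 NIH3T3 member peaks, against 102 of 463 (22.0%, 18.3 to 26.1), and at 1 of 6 liver member peaks, against 54 of 1254 (4.31%, 3.25 to 5.58). Among liver-only peaks it was 1 of 3 members against 1.53% of 981. Within 5 kb the member counts were the same, against 22.9% and 4.63% of the lists. The limit mattered for Klf9: all its distances to CLOCK lay between 5069 and 5349 bp, just outside, while the single member inside lay at 66 bp. At 10 kb the counts were 2 of 3 in NIH3T3 cells, against 23.5% of the list, and 4 of 6 in liver, against 5.02%. The added members were the Klf9 peaks, whose CLOCK neighbours are 1 site counted for both peaks, and the farther Klf13 peak. The CLOCK peak of that farther Klf13 peak was the same one already counted for the nearer. A CLOCK peak that is not listed is not a site without CLOCK, as the lists have no depth or threshold given.

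**Figure D3:**
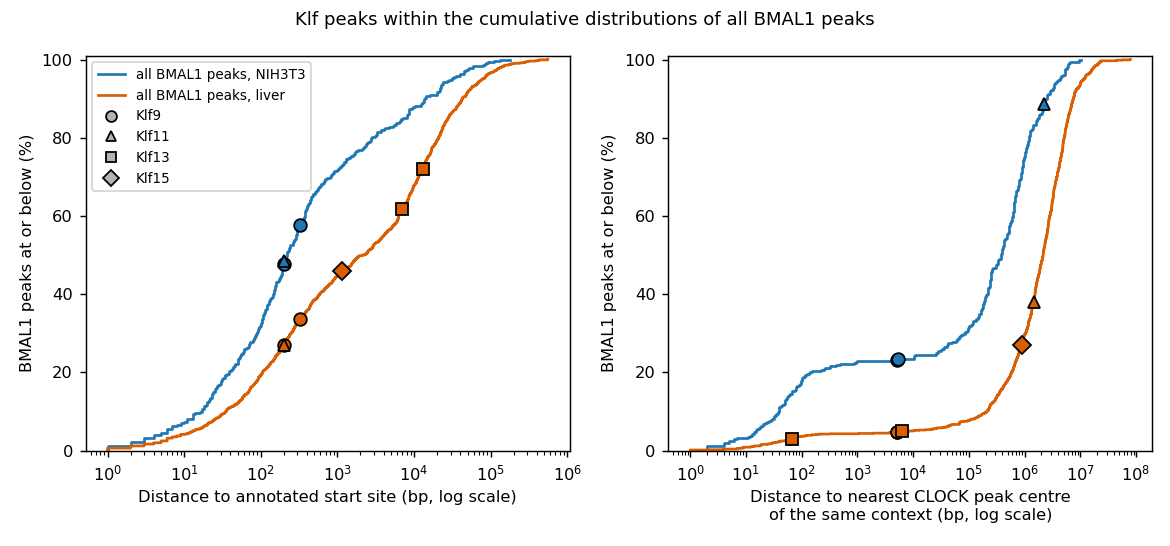
Cumulative share (%) of all BMAL1 peaks of each list against distance to the start site (left) and to the nearest CLOCK centre of the same context (right), both in bp on log axes, with the Klf peaks marked by symbol. The Klf peaks are spread along the left curves, and on the right Klf13 has a peak at 66 bp while the Klf9 peaks sit on the flat part just above 5 kb.

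The Klf genes were set beside 2 groups of clock genes with many BMAL1 peaks. The D-box factor genes Dbp, Tef, Hlf and Nfil3 had 12 NIH3T3 and 14 liver peaks, of which 11 and 9 were shared and 10 and 8 had CLOCK within 500 bp. The genes for the clock repressors, namely the Per, Cry, REV-ERB and DEC genes, had 28 and 23 peaks, of which 25 and 23 were shared and 19 and 15 had CLOCK. The Klf genes had 3 and 6 peaks, with 3 and 3 shared and 0 and 1 with CLOCK. Over all BMAL1 peaks of the lists the shares with CLOCK were 22.0% and 4.31%, so the clock genes are an unusual yardstick. Several peaks of the clock genes stand close together, so they are not separate events, and the difference between these groups was not tested. Lack of CLOCK was not particular to the Klf genes: Per3 and the DEC gene Bhlhe40 had no CLOCK within 500 bp in either context. Nfil3, with BMAL1 peaks in the liver list alone, had no liver CLOCK within 500 bp of them. Every other gene of the clock groups had CLOCK within 500 bp at some peak.

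**Figure D4:**
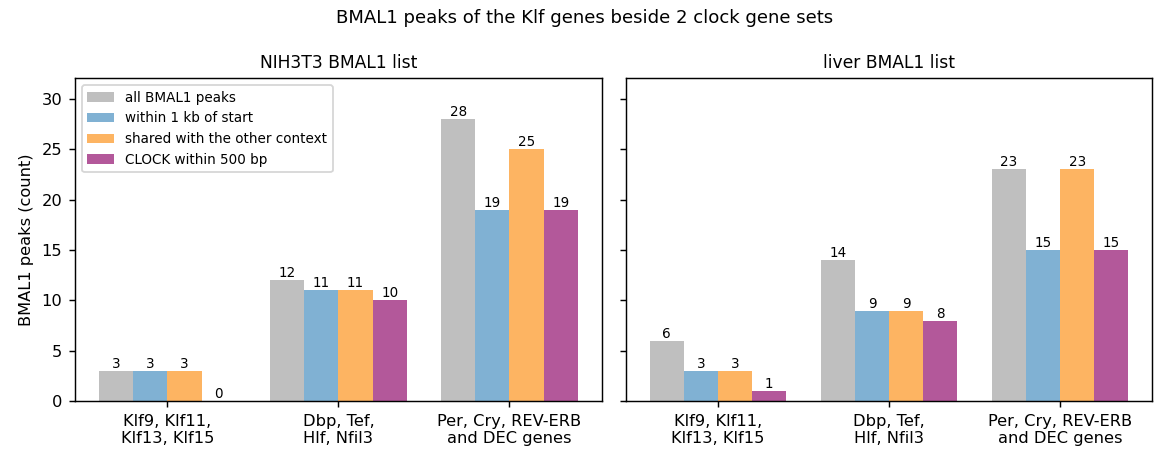
Counts of BMAL1 peaks in the NIH3T3 list (left) and the liver list (right) for the 4 Klf genes, 4 D-box factor genes and 9 clock repressor genes, with how many lay within 1 kb of the start, were shared with the other context or had CLOCK within 500 bp. The Klf genes show 0 of 3 and 1 of 6 peaks with CLOCK, beside 10 of 12 and 8 of 14 for the D-box factor genes. Over the whole lists 22.0% of NIH3T3 and 4.31% of liver BMAL1 peaks had CLOCK within 500 bp. These counts pool genes. Per3 and Bhlhe40 had no peak with CLOCK in either list, and Nfil3, with liver peaks alone, had none with CLOCK.

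Of the 18 KLF gene symbols searched, the other 14 had no entry in either BMAL1 list, and neither had any of the 9 SP genes, the closest relatives of the family. Few genes have a peak (2.83% of all, given below), so these absences were not read as a result. In the list of the Sin3 corepressor, which KLF9, KLF11 and KLF13 recruit, 1 of 17 genes had a peak. This was Sap18, a Sin3-associated protein, with a liver-only peak at -59 bp. Leaving out Klf9 and Klf15, which were chosen for their peaks, 5 of 23 glucocorticoid response genes had a peak. The glucocorticoid list was chosen with earlier results of these data known, and the clock gene Per1 is among the 5. This count was therefore not read as an excess. Over all genes of the RefSeq promoter table, 766 of 27025 (2.83%) were named at a BMAL1 peak by the same symbol, and the difference was not tested. The BMAL1 lists named 1137 genes, so genes whose symbol was not in that table are missing from this share. Per1 (a clock repressor), Tsc22d3 (GILZ, a glucocorticoid-induced factor) and Angptl4 (an inhibitor of lipoprotein lipase) had shared peaks as Klf9 did, Fkbp5 (a chaperone of the glucocorticoid receptor) had an NIH3T3 peak at -160 bp, and Sgk1 (a kinase) had a liver peak at 5226 bp. In NIH3T3 cells Per1 and Tsc22d3 had CLOCK within 500 bp at all their peaks, and Klf9, Angptl4 and Fkbp5 had none. In liver CLOCK stood at 2 of 3 peaks of Per1 and at 0 of 2 of Tsc22d3, and again at none of Klf9 and Angptl4. Of 29 genes of amino acid breakdown, a process that KLF15 controls, 3 had a peak and each was liver-only, as were 792 of all 1137 genes with a BMAL1 peak (69.7%). They were Gpt (alanine aminotransferase) at 1272 bp, Gpt2 (its mitochondrial form) at -3743 bp and Arg1 (arginase) at -21129 bp.

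Other genes were then matched to each Klf gene by the same number of peaks in each list, the same presence of a shared peak and the same presence of CLOCK within 500 bp, among 1137 genes with a BMAL1 peak. Klf9 had 24 such genes, and those with the most similar distance to the start site were Mex3d at 183 bp, Ehmt2 (a histone methyltransferase) at 179 bp and Phf17 at 169 bp, beside 198 bp for Klf9. Klf11 had 79, the closest being Fam76a at 194 bp, Fnip2 at 175 bp and Ptp4a2 at 230 bp, beside 200 bp. Klf15 had 679, with Zfand5 at 1160 bp, Cnnm4 at 1139 bp and Usp2 (a deubiquitinase) at 1126 bp beside 1159 bp. Klf13 had 1, D18Ertd653e, whose nearest peak lay 125129 bp from its start site. The arrangement of Klf15 was thus the most common of the 4 and that of Klf13 the rarest.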

How the data were processed

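The deposited files used were 4 peak lists from ChIP-seq, 2 for BMAL1 and 2 for CLOCK. The authors' values were positions in mm9 and, for BMAL1, a gene and a signed distance in bp to its start site. Bowtie, SAMtools and bedtools are named without roles or versions per the submitters' processing notes. No source used here gives the peak caller, its threshold or how libraries were pooled. Widths were 5 to 100 bp for BMAL1, 50 bp for NIH3T3 CLOCK and 250 bp for liver CLOCK, so distances between centres were used. The gene column of the NIH3T3 CLOCK list was not used. Starts count from 1.

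Peaks were shared, and CLOCK was at the same site, where centres lay within 500 bp. Promoter peaks lay within 1 kb. The start site of a gene was taken from peak centre and authors' distance, with strands from RefSeq. List shares have 95% Clopper-Pearson intervals, which cover counting error over peaks only. Promoters are RefSeq's of GRCm38.p6. No coordinates were converted between builds. Members, gene lists and the rule for named genes were chosen with earlier results of these data known. That rule took the members, genes of the lists with a peak, genes with peaks within 200 kb of a member and up to 3 genes per member of the same pattern. 1 gene of the fixed lists is not reported here. Protein comparisons were not analysed here, nor were RNA, polymerase and input libraries. The counting was tested on simulated data. Scripts ran in Python 3.11.15 with SciPy 1.17.1, pandas 2.3.3, NumPy 2.4.6 and matplotlib 3.10.9.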

Additional observations from a re-analysis of the deposited data

How the results depend on the processing

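The alternatives were centre distances of 200 bp and 1 kb, overlap by at least 1 bp, identical intervals, promoter limits of 200 bp and 5 kb, CLOCK limits of 2 and 10 kb, joining peaks within 1 kb, the wider E-box letters and counting by position. Under them 24 of 27 member counts stayed within 1.5 times their value, and list shares left their intervals in 5 of 22 cases. The counts of shared member peaks could not move, so their stability says nothing. The shared intervals were identical in both lists, and no NIH3T3 BMAL1 peak lay within 200 kb of the Klf13 or Klf15 start site. The limit for CLOCK moved 2 counts: at 10 kb instead of 5 kb, NIH3T3 member peaks with CLOCK went from 0 to 2 and liver ones from 1 to 4, while the list shares went from 22.9% to 23.5% and from 4.63% to 5.02%. At Klf9 and at Klf13 the same CLOCK peak was counted for both BMAL1 peaks of the gene. Counting BMAL1 peaks by position within 10 kb of the start site, an alternative chosen after seeing the data, raised the NIH3T3 count from 3 to 6 through the peaks of 2410080I02Rik beside Klf9. No paired analysis was possible because the lists hold no value per library, and for the same reason no library could be left out. Depth and peak height are unknown, so a missing peak cannot be told from a peak under the threshold.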

Other observations

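The start sites of Klf9 and 2410080I02Rik were 6326 bp apart in mm9 by the authors' distances and 6728 bp apart in the RefSeq promoter table, a difference of 402 bp. Whether a start site or the sequence between the genes differs between the annotations or builds was not tested, so the place of the Klf9 peaks relative to the promoter sequence printed above is uncertain. The 3 peaks of 2410080I02Rik gave 1 start site when read on the plus strand, so both genes run in the same direction.

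The promoter of Klf15 held CACGTG although its BMAL1 peak lay beyond 1 kb. Among liver genes with every BMAL1 peak beyond 1 kb, 28 of 331 (8.46%, 5.69 to 12.0) held CACGTG in a promoter, beside 2187 of all 27025 genes (8.09%).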
